A study of Mus musculus with 6 samples.

Results

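Cluster 11 of the deposited annotation held 366 of 38154 nuclei (0.959%) from mouse jejunal organoids, and its members were taken as every nucleus that the annotation assigned to that cluster number. Organoids are epithelial cultures grown from intestinal crypts, here passaged crypts of the jejunum of C57BL/6 mice aged 8 to 12 weeks, with no introduced allele named in the labels. They were grown in conditioned medium, mixed with a commercial organoid medium, from mouse embryonic fibroblasts that were either quiescent after serum deprivation (QCM) or senescent (SCM). The study used X-rays or doxorubicin to induce senescence, and the labels do not say which was used for these samples. There were 3 samples per medium, and the question was how secretions of senescent cells act on the intestinal epithelium. The cultures hold epithelium without the immune and stromal cells that surround it in the gut.

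Tuft cells are rare chemosensory cells of the gut epithelium. They carry a taste-like signalling chain that ends in the cation channel Trpm5, require the transcription factor Pou2f3, and have a brush of long microvilli held by actin-binding proteins such as advillin (Avil) and villin (Vil1). In the gut they are known for release of the cytokine Il25, of lipid mediators and of acetylcholine when they sense parasites or microbial metabolites, which makes the epithelium produce more tuft and goblet cells.

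QCM replicates 1, 2 and 3 contributed 42, 70 and 134 nuclei to cluster 11, and SCM replicates 1, 2 and 3 contributed 4, 30 and 86. These nuclei held 418307, 297503 and 288426 UMIs (counted RNA molecules) in QCM and 20337, 240588 and 195339 in SCM. SCM replicate 1 had 430 nuclei in all and 175 of their barcodes were also present in QCM replicate 1, against 0 to 36 shared barcodes in every other pair of samples. None of its 4 nuclei of cluster 11 carried a shared barcode. With under 10 nuclei in the cluster it was left out of the tests on genes, which then compared 3 QCM with 2 SCM samples. Xist, the RNA of the inactive X chromosome, was at 4102 counts per 1000000 UMIs (CPM) in the other nuclei of QCM replicate 1 and at 6608 CPM in those of SCM replicate 1, and at 0.973 to 2.55 CPM in the remaining 4 samples. The Y-linked gene Uty was at 0.0492 and 0.494 CPM in the same 2 samples and at 244 to 281 CPM in the remaining 4, and Ddx3y was at 0.517 and 4.44 CPM against 77.0 to 102 CPM. Replicate 1 of both media therefore stood apart in Xist and in Y-linked genes, as female and male tissue do, while the labels give no sex. Both SCM samples in the gene tests were of the kind with Y-linked expression. The part of this split in the results was not tested other than by leaving out QCM replicate 1.

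The 6 tuft markers Dgki, Dclk1, Rgs13, Pou2f3, Sh2d6 and St18 were all higher in cluster 11 than in the other nuclei in each of the 5 samples that entered the gene tests. The clusters were made from the expression of these same nuclei, so this is a description without a test. Pou2f3, the master regulator of tuft cells (chr9:43123939-43210369, minus strand, GRCm38), stood at 90.8, 266 and 361 CPM in QCM replicates 1, 2 and 3 and at 200 and 527 CPM in SCM replicates 2 and 3, against 1.20 to 7.93 CPM in the other nuclei of these samples. The lowest cluster 11 value was above the highest value of the other nuclei.

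Dgki, a diacylglycerol kinase (chr6:36846022-37300184, minus strand), was at 112, 333 and 527 CPM in QCM and at 1010 and 620 CPM in SCM. Its mean over the 5 samples was 520 ± 336 CPM (SD, n = 5), or 191 times the mean of the other nuclei, the largest ratio of any gene used with at least 20 CPM in the cluster. Dclk1, a microtubule-associated kinase widely used to stain tuft cells (chr3:55242364-55539068, plus strand), was at 62.2, 155 and 444 CPM in QCM and at 366 and 174 CPM in SCM. Its ratio of means was 141. QCM replicate 1 was the lowest of the 5 samples for each of these 3 genes.

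Rgs13, a regulator of G-protein signalling (chr1:144138654-144177372, minus strand), had a mean of 142 ± 91.4 CPM (SD, n = 5) and a ratio of 97.98. Sh2d6, an adaptor with an SH2 domain (chr6:72513641-72521707, minus strand), had a mean of 44.8 ± 29.1 CPM and a ratio of 128. St18, a zinc finger transcription factor (chr1:6487231-6860940, plus strand), had a mean of 387 ± 248.9 CPM and a ratio of 26.3, the lowest of the 6. The 4 nuclei of SCM replicate 1 held UMIs of Dgki (49.2 CPM) and Pou2f3 (98.3 CPM) and none of the other 4 markers. The plot of marker levels by sample shows this gap between cluster 11 and the other nuclei.

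**Figure D1:**
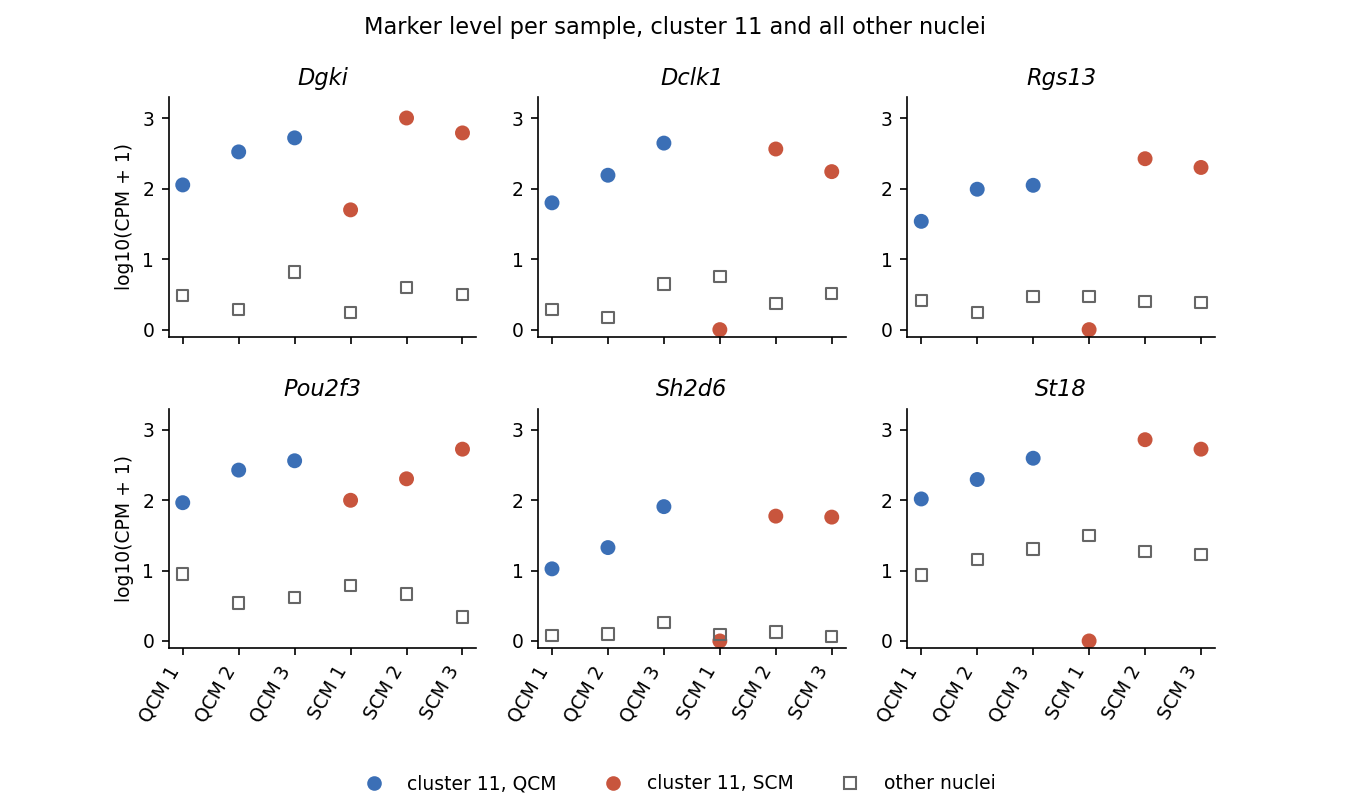
Level of the 6 markers in each sample, as log10(CPM + 1) of summed UMIs. Filled circles are cluster 11 (blue QCM, red SCM), open squares are all other nuclei of the same sample. In the other 5 samples each circle lies above its square, and SCM replicate 1, with 4 nuclei in the cluster, is at 0 for 4 markers.

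Most nuclei of the cluster nevertheless carried few of these markers. No UMI of any of the 6 was found in 68 nuclei, and 228 nuclei had a UMI of exactly 1 marker, so that 296 nuclei (80.9%) had at most 1. A further 27 had 2 markers, and 43 (11.7%) had 3 or more, 12 of them exactly 3 and 17 all 6. Among the 228 nuclei with 1 marker it was Pou2f3 in 148 and Dgki in 63. The range of 3 or more is a cut on a count and not a cell type, and the 27 nuclei with 2 and 12 with 3 lie next to it.

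The nuclei with more markers lay apart on the deposited UMAP, a map on which nuclei of like expression sit close. The map was made from the expression of these same nuclei, so the position is a description and not independent of the markers. Of the 43 nuclei of the cluster with the highest first coordinate, 39 had 3 or more markers. They were also deeper. The median was 4170 UMIs in nuclei with 3 or more markers, 3055 in those with 2 and 1916.5 in those with 0 or 1, against 2140 in the other nuclei. The part of depth in the marker number was not tested beyond the thinning given next.

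**Figure D2:**
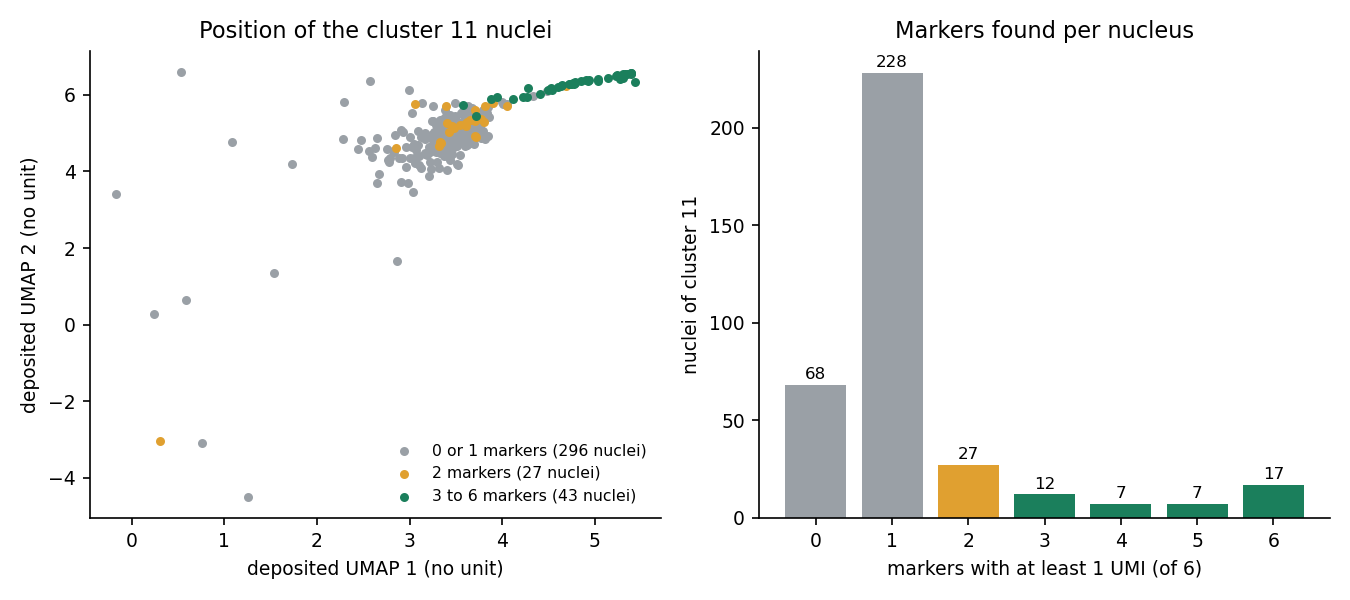
Left, deposited UMAP coordinates (no unit) of the 366 nuclei of cluster 11, coloured by how many of the 6 markers had a UMI. Right, number of nuclei for each number of markers, where 228 nuclei had 1 marker and 43 had 3 to 6, and the latter form the arm at the right of the map. The map was made from the expression of the same nuclei.

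To set depth aside, each nucleus was thinned to 1000 UMIs and the 40 nuclei of the cluster below that depth were left out. A UMI of at least 1 of the 6 markers remained in 162 of 326 nuclei (49.7%, 95% Wilson interval 44.3 to 55.1), and in 648 of 34649 other nuclei (1.87%, 1.73 to 2.02). In cluster 8, which had the highest summed level of the enterocyte list and should lack these markers, it was 20 of 1366 nuclei (1.46%, 0.954 to 2.25), with a median of 2366.5 UMIs before thinning against 2080.5 in cluster 11. Before thinning the shares were 81.4% in cluster 11, 5.399% in the other nuclei and 5.08% in cluster 8. Intervals cover counting error only.

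By marker, Pou2f3 was found after thinning in 31.0% of cluster 11 nuclei, Dgki in 19.0%, St18 in 9.20%, Rgs13 in 6.75%, Dclk1 in 6.13% and Sh2d6 in 3.99%. In cluster 8 the same shares lay between 0.146% and 0.586%. A UMI of 3 or more markers was found in 20 of the 326 thinned nuclei (6.13%, 4.01 to 9.29) and in 1 of 34649 other nuclei. Pou2f3 and Dgki were thus the markers found most often, and Sh2d6 the one found least often.

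The UMIs of leading genes other than the markers also came mostly from the marker-rich nuclei. Of the genes used here, the 15 with the largest ratio to the other nuclei held 10 that are not among the 6 markers, namely 1700111E14Rik, Lrmp, Pik3r5, Gm26778, Trpm5, Plxna4, Fyb, Kcnd3, Nebl and Avil. Without QCM replicate 1, 14 of the 15 were kept, without Avil. At a minimum of 50 CPM 9 of the 15 were kept, and without deep nuclei (over 2 times the median UMIs of the cluster in their sample) also 9, with Sh2d6, 1700111E14Rik, Pik3r5, Gm26778, Plxna4 and Nebl lost. 1700111E14Rik lies within Dgki and was set aside, which leaves 9. A UMI of at least 1 of these 9 was found in 40 of 43 nuclei with 3 or more markers (93.0%), in 5 of 27 with 2 (18.5%), in 28 of 228 with 1 (12.3%), in 23 of 68 with none (33.8%) and in 1154 of 37788 other nuclei (3.05%). The share did not fall in step with the marker number, since nuclei with no marker were above those with 1 or 2. At least 2 of the 9 were found in 83.7% of the first range and in 1.69% of the nuclei with 0 or 1 marker. The 9 genes were chosen for their level in this cluster, where most of their UMIs came from the marker-rich nuclei, and they helped to make the cluster, so the ranges are described without a test and are not independent of the markers.

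Trpm5, the channel at the end of the taste-like chain (chr7:143069153-143094642, minus strand), was at 63.6 CPM in nuclei with 3 or more markers and at 8.45 CPM in nuclei with 0 or 1, with UMIs in 21 of 43 and in 6 of 296 nuclei. Avil, which bundles actin in the brush (chr10:127000709-127020994, plus strand), was at 118 and 18.1 CPM, with UMIs in 29 of 43 and in 15 of 296 nuclei. Both were above the other nuclei, at 0.886 and 2.01 CPM, in either range. Nebl, an actin-binding protein of the nebulin family, was at 195 CPM against 7.24 CPM, and Pik3r5, a regulatory subunit of a phosphoinositide 3-kinase, had 44 UMIs in the first range and none in the 296 nuclei.

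The level of Pou2f3, which is itself among the markers that set the ranges, did not follow this order. Pou2f3 was at 233 CPM in nuclei with 3 or more markers, 345 CPM in those with 2 and 258 CPM in those with 0 or 1, although a nucleus of the last range could hold no other marker beside it. These levels are sums over samples, which weigh differently in each range, and they were not compared within samples. Pou2f3 was the only marker in 148 nuclei, and the cluster was made from the expression of these same nuclei. The level of Pou2f3 by range is thus partly set by the choice of nuclei. It is a description and cannot be set against the levels of Trpm5 or Avil, which did not set the ranges. Of the 296 nuclei with 0 or 1 marker, 217 had a UMI of Pou2f3, Dgki or the organic anion transporter Slco3a1.

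The other genes used here that stood out in the 296 nuclei were few and low. Slco3a1 was at 41.0 CPM against 1.71 CPM in the other nuclei, with UMIs in 5.07% of these nuclei. The potassium channel Kcnh8 (42.2 CPM against 7.04) was found in 9.46% of them and the receptor tyrosine kinase Kit (54.3 CPM against 15.8) in 10.5%. They were picked with their values in view. The tuft label thus rests on 3 or more markers in 43 nuclei, 17 of them with all 6, and on 1 marker or none in 296, so the nuclei are called cluster 11 here.

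**Figure D3:**
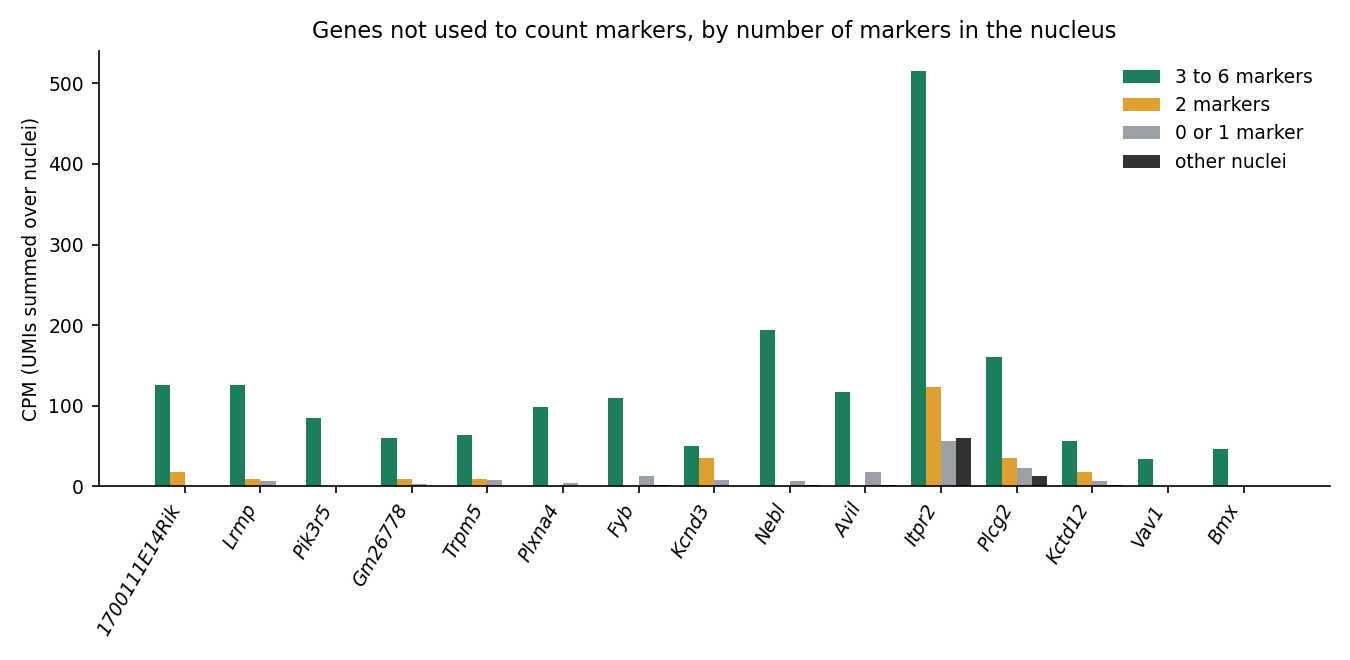
Level in CPM of 15 genes that were not among the 6 markers, with UMIs summed over the nuclei with 3 to 6, 2 and 0 or 1 markers and over all other nuclei. Itpr2 reached 515 CPM in nuclei with 3 or more markers and 56.7 CPM in those with 0 or 1.

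The tuft list was followed by role. Of its 63 genes used here, 24 were above the other nuclei in all 5 samples (38.1%), against 1.43% of all 31318 genes used. The 6 markers are among these 24, and without them it was 18 of 57 (31.6%). Of the 57, 21 had at least 5 CPM over all nuclei, and their median ratio was 1.29, against 0.975 for the 11993 genes at that level. The list names genes known from tuft cells and the cluster was made from these nuclei, so the counts are a description.

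Among transcription factors, Pou2f3 and St18 were joined by Runx1 at 165 CPM against 75.0 CPM in the other nuclei, a ratio of 2.20 with 4 of 5 samples higher. With UMIs summed over nuclei, Runx1 was at 272 CPM in those with 3 or more markers and at 72.4 CPM in those with 0 or 1, against 73.7 CPM in the other nuclei. Sox9 was at 74.2 CPM against 57.3 CPM. Gfi1b, a factor of mature tuft cells, had a single UMI in the whole cluster, and Spib had 4.

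In the taste-like chain, Plcg2, a phospholipase that makes inositol trisphosphate, was at 78.0 CPM against 13.5 CPM, higher in all 5 samples. Itpr2, an inositol trisphosphate receptor that releases calcium, was at 253 CPM against 61.1 CPM, also in all 5. The related receptor Itpr3 was at 93.9 CPM against 87.7 CPM, higher in 2 of 5. The G-protein subunits and the receptor of the canonical chain were near the limit of detection, with 2 UMIs of Gnat3, 4 of Gnb3, 1 of Gng13 and 3 of Tas1r3, and Ffar3 had none, which allows up to 3 UMIs in the 1460500 of the cluster.

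Signalling adaptors and kinases held genes also known from blood cells. Vav1, an exchange factor, was at 15.3 CPM against 0.636 CPM. Inpp5d, a lipid phosphatase, was at 10.7 CPM against 0.744 CPM, and both were higher in all 5 samples. Vav1 held 1, 2 and 4 UMIs in QCM and 8 and 4 in SCM, and Inpp5d 5, 2 and 5 and 3 and 1. Both stood below the 4 genes of this role with the highest level, which include Bmx at 19.5 CPM against 0.846 CPM, higher in 4 of 5. In this role 5 of 14 genes were higher in all 5 samples, and Ptpn6 was at 9.69 CPM against 10.1 CPM. The kinase Lyn was at 73.2 CPM against 59.5 CPM and the phosphatase Ptpn18 at 139 CPM against 121 CPM. Ptprc, the leukocyte antigen CD45 that some tuft cells carry, had 2 UMIs. Of the leukocyte markers, 7 of the 9 leukocyte markers that were used had no UMI in the cluster, and the summed level of the list was 0 to 8.31 CPM in the 5 samples against 1.46 to 12.6 CPM in the other nuclei.

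Of the cytoskeletal and brush genes, Avil had a mean of 59.6 ± 33.4 CPM (SD, n = 5) and a ratio of 27.6, and Nebl one of 82.5 ± 79.2 CPM with a ratio of 28.8. Kctd12, a potassium channel tetramerisation domain protein, was at 26.7 CPM against 2.09 CPM, and it stood below the 4 genes of its role with the highest level. In this role 7 of 11 genes were higher in all 5 samples, while Krt23 was at 7.47 CPM against 13.0 CPM. Vil1 and the keratin Krt18, which all gut epithelial cells make, were at 0.995 and 0.835 times the other nuclei.

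Among the effector genes, 2 of 7 for lipid mediators, 1 of 5 for cytokines and their receptors and none of 3 for acetylcholine were higher in all 5 samples. For lipid mediators, Hpgds, the prostaglandin D synthase, was at 54.4 CPM against 35.4 CPM and the phospholipase Pla2g4a at 180 CPM against 92.4 CPM, both higher in all 5 samples. Ltc4s, the leukotriene C4 synthase, was at 10.2 CPM against 2.33 CPM and higher in 4 of 5, while Alox5, the first enzyme of that route, had no UMI. Il25 had no UMI either. Il13ra1, a subunit of the receptor through which the epithelium senses type 2 cytokines, was at 96.9 CPM against 27.8 CPM, higher in all 5, and the Il25 receptor subunit Il17rb at 17.0 CPM against 16.4 CPM. Chat, which makes acetylcholine, had 5 UMIs, and the choline transporter Slc5a7 none. These zeros are limits at this depth and not evidence of absence.

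Among the leading genes without a place on the list, 1700111E14Rik (ratio 104) is annotated as antisense and lies at chr6:36937048-36985784 inside Dgki on the opposite strand, so its reads and those of Dgki cannot be told apart unless the counting used strand. Gm26778 (ratio 43.7), annotated as a long noncoding RNA at chr14:102978220-102982528, likewise lies inside Kctd12 (chr14:102976581-102982637) on the opposite strand, and the reads of that pair cannot be told apart either unless strand was used. Lrmp, a protein of the endoplasmic reticulum also known as Jaw1, had a mean of 56.0 ± 41.7 CPM (SD, n = 5) and a ratio of 84.7. The adaptor Fyb was at 50.5 ± 30.8 CPM, the semaphorin receptor Plxna4 at 43.5 ± 37.5 CPM and the potassium channel Kcnd3 at 29.3 ± 18.7 CPM.

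Pou2f3 binds an octamer in the promoters of its targets, so the 250 bases before the start annotated by RefSeq were searched for it in the tuft list and the leading genes. RefSeq windows (GRCm38.p6) were matched for 54 of 69 genes. The octamer ATGCAAAT, on either strand, was in 5 of their 67 windows and in 1.60% of 32851 windows of all genes. The shorter ATGCAAA, which every octamer contains, was in 9 of the 67 and in 4.12% of all. The windows of Hpgds, Avil and Trpm5 are shown to compare a gene with the octamer, one with the shorter form and one with neither, and that of Hpgds, with its octamer, reaches into the gene as GENCODE draws it. They are written 5′ to 3′ on the strand of the gene, with the matched letters or their reverse complement in capitals.

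Hpgds (chr6:65144731-65144980, minus strand): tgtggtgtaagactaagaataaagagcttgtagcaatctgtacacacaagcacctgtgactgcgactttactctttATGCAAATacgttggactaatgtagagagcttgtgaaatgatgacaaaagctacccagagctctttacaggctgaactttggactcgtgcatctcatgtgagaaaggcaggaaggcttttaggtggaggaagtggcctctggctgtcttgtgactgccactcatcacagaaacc
Avil (chr10:127000459-127000708, plus strand): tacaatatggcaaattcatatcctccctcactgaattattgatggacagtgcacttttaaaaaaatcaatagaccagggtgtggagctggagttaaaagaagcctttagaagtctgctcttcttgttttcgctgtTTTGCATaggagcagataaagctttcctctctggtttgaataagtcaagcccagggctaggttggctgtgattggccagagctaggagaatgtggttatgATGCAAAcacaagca
Trpm5 (chr7:143094643-143094892, minus strand): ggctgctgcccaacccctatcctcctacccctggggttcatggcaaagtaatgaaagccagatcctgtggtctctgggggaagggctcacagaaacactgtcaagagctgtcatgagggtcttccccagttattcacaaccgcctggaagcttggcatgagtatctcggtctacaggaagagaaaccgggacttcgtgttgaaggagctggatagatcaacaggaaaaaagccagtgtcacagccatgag

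Windows were found for 4 of the 6 markers and for 10 of the 15 leading genes. Among those searched, the 9 matches held no marker and, of the leading genes, Avil, and a match is a description of letters and not of binding. In these windows Hpgds held the whole octamer and was 1.53 times the other nuclei, Avil held the shorter form on each strand and was 27.6 times, and Trpm5 held neither and was 36.4 times.

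Across the 15 deposited clusters, all 6 markers and the other 10 leading genes had their highest mean level in cluster 11. The leading genes were chosen for their ratio to the other nuclei and the markers name the cluster. This first place thus follows largely from the choice and is a description. For Dgki the next was cluster 9, at 30.6 CPM (range 13.8 to 47.1 over samples) against 520 CPM (112 to 1010) in cluster 11. For Pou2f3 the next was cluster 6, at 13.0 CPM (7.43 to 19.1) against 289 CPM (90.8 to 527). The sample ranges of the neighbours did not overlap for either gene.

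St18 was the exception among the markers. In cluster 9 it was at 206 CPM (112 to 277), which overlapped its range of 103 to 719 CPM in cluster 11, and it had a UMI in 29.2% of cluster 9 nuclei against 15.6% of cluster 11 nuclei. Cluster 9 had the highest summed level of the enteroendocrine list, and that list was at 95.6 to 400 CPM in cluster 11 against 140 to 435 CPM in the other nuclei of the same samples. Outside cluster 11, 18 nuclei had 3 or more of the 6 markers, 7 of them in cluster 9, 4 in cluster 14, 3 each in clusters 6 and 7 and 1 in cluster 2. Of the other 10 leading genes, 5 also overlapped with the next cluster in their sample ranges, namely Lrmp, Pik3r5, Plxna4, Kcnd3 and Nebl. The heat map of levels by cluster shows these levels and the second high value of St18.

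**Figure D4:**
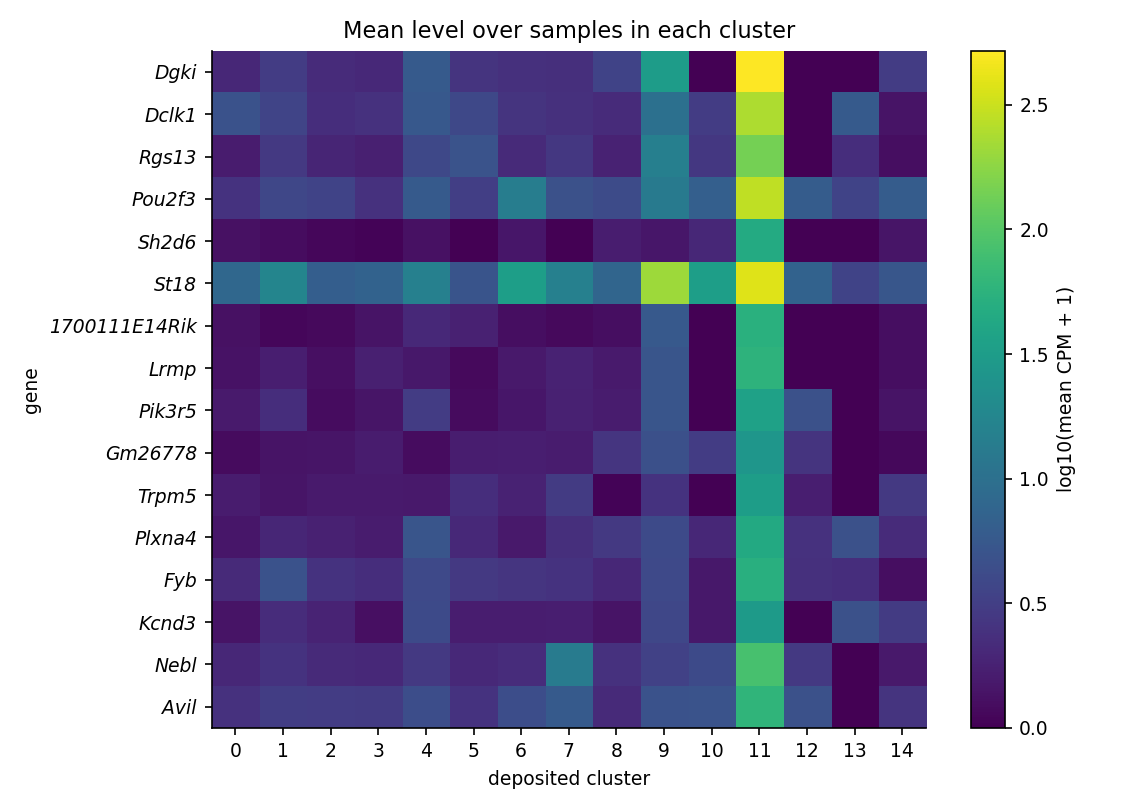
Mean level over samples, as log10(mean CPM + 1), of the 6 markers and the other 10 leading genes (rows) in the 15 deposited clusters (columns). Cluster 11 has the highest value in every row, for genes chosen by their level there, and St18 is next highest in cluster 9, at 206 CPM.

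Markers of other epithelial lineages were also present in cluster 11. None of 6 Paneth, 8 goblet, 13 enteroendocrine, 12 enterocyte or 8 fetal list genes was above the other nuclei in all 5 samples. Over the genes with at least 5 CPM over all nuclei, the median ratio was 1.38 for the Paneth, 1.18 for the goblet, 0.879 for the enteroendocrine and 0.818 for the enterocyte list. The fetal list had a median ratio of 0.426 over 4 genes. Its summed level was 103, 23.5 and 55.5 CPM in QCM and 108 and 97.3 CPM in SCM, against 91.2, 45.1, 62.6, 572 and 151 CPM in the other nuclei of the same samples, so that it was lower in 4 of 5 and by most in SCM replicate 2. In the stem list 2 of 8 were higher in all 5 samples, and the summed stem level was 2202 to 5641 CPM in cluster 11 against 2245 to 4053 CPM. Smoc2 was at 960 CPM against 714 CPM and Lgr5, the receptor that marks crypt base stem cells, at 552 CPM against 465 CPM. The summed Paneth level was 353 to 2838 CPM in cluster 11 against 335 to 2631 CPM. In SCM replicate 2 it was at 1389 CPM against 434 CPM, and 1 nucleus with 5068 UMIs and 5 of the 6 markers carried 242 of its UMIs, 4.78% of that nucleus against at most 0.494% in any other nucleus of the cluster.

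The share of nuclei in cluster 11 was 1.11% (0.821 to 1.49), 0.883% (0.699 to 1.11) and 1.32% (1.12 to 1.56) in QCM replicates 1, 2 and 3. It was 0.930% (0.362 to 2.37), 0.597% (0.418 to 0.851) and 0.794% (0.643 to 0.979) in SCM replicates 1, 2 and 3. The 2 SCM samples with at least 10 nuclei were below all QCM samples, and SCM replicate 1 lay within the QCM range. The means were 1.10% ± 0.219 in QCM and 0.774% ± 0.168 in SCM (SD, n = 3 each), a log2 change of -0.56 ± 0.30 (SE). Fitted over the 15 clusters with edgeR's quasi-likelihood test, the adjusted p was 0.825, and the two-sided exact permutation p of the share was 0.2, where 3 against 3 samples cannot go below 0.1. The difference was not past the threshold, nor was it without SCM replicate 1 (log2 change -0.66, adjusted p 0.749) or without the barcodes it shared with QCM replicate 1 (-0.37, adjusted p 0.828).

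The lower share in SCM was not seen when nuclei were taken by markers in place of the cluster. Nuclei with 3 or more of the 6 markers in any cluster numbered 11, 9 and 15 in QCM and 2, 14 and 10 in SCM. They made up 0.290%, 0.113% and 0.148% of the QCM nuclei and 0.465%, 0.279% and 0.0923% of the SCM nuclei, so that the groups overlapped. The means were 0.184% ± 0.0937 and 0.279% ± 0.186 (SD, n = 3 each), with an exact permutation p of 0.7 and an adjusted p of 0.991 in edgeR. The higher SCM mean came from the 2 nuclei of SCM replicate 1, without which it was 0.185% and the log2 change was 0.0089 in place of 0.27. Nuclei of the cluster with 0 or 1 marker went the other way, at 0.870%, 0.744% and 1.08% of the QCM nuclei and at 0.930%, 0.298% and 0.692% of the SCM nuclei (exact permutation p 0.4). These counts were taken at full depth, on which the number of markers found depends. The median over all nuclei of a sample was 8260, 2301.5 and 1578 UMIs in QCM and 3156.5, 2547.5 and 1966 UMIs in SCM. The part of depth in these shares was not tested.

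**Figure D5:**
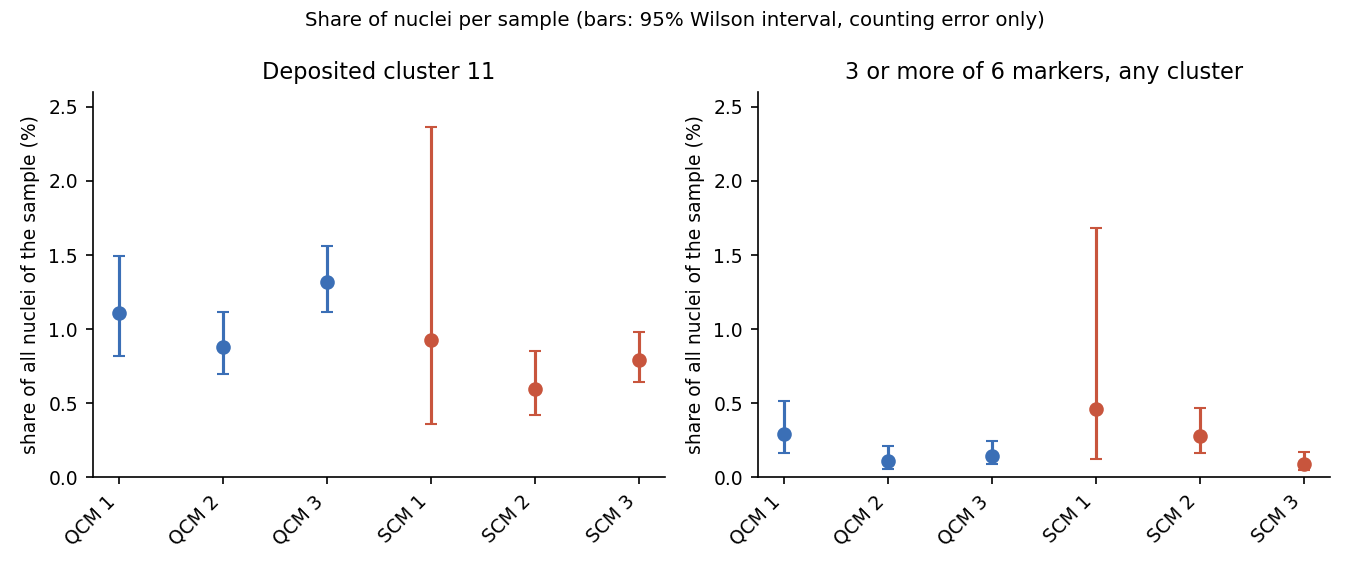
Share of all nuclei of each sample that lay in deposited cluster 11 (left) or that had a UMI of 3 or more of the 6 markers in any cluster (right), in percent, with 95% Wilson intervals for counting error. On the left 2 of 3 SCM samples are below the QCM samples, and on the right the groups overlap and SCM replicate 1 has the highest value, from 2 nuclei.

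Marker-rich nuclei made up the largest part of the cluster in SCM replicate 2. They were 10 of its 30 nuclei in the cluster (33.3%) and 74.1% of its UMIs there, against 9.30% to 11.9% of the nuclei and 12.2% to 48.9% of the UMIs in the other 4 tested samples. Each sum over the cluster below mixes both kinds of nuclei in these proportions. A shift in the mix and a change within nuclei therefore cannot be told apart in the sums over the whole cluster.

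The median UMI count per nucleus of the cluster was 8591.5, 2343.5 and 1521 in QCM and 3197.5 and 1935.5 in SCM replicates 2 and 3, close to the 8259, 2301, 1579, 2546 and 1967 of the other nuclei. QCM replicate 1 was deepest in both, and the groups overlapped. The exact permutation p of the difference was 1 (smallest possible 0.1). A few nuclei weighed heavily on the sums, with the deepest nucleus of QCM replicate 2 at 83345 UMIs, or 28.0% of that sample's cluster total, and that of SCM replicate 2 at 46845 UMIs, or 19.5%.

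Between the media no gene of cluster 11 passed the threshold. Of 6633 genes tested with edgeR's quasi-likelihood test, 0 (0%) had an adjusted p under 0.05, and the smallest adjusted p was 0.819. At an unadjusted p under 0.05, 95 genes were higher in SCM (1.43%) and 179 lower (2.70%). DESeq2 and voom with limma also called 0 genes, with 21 and 109 higher and 213 and 59 lower at that unadjusted level. With no filter on low counts 70 of 19514 genes were called, 7 higher and 63 lower. Without QCM replicate 1 edgeR called 0 genes, with 64 higher and 70 lower at the unadjusted level.

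Of the 66 genes of the tuft list 24 were tested, and none was called. The log2 difference was positive in 20, and the median over the 24 was 0.56, against a median of 0.0050 and 50.4% positive over all genes tested. In 10 of the 24 both SCM samples were above all QCM samples, which held for 13.3% of all genes tested, and in 1 both were below (6.41% of all). The 24 include the 6 markers, and Sh2d6, Fyb and 1810046K07Rik passed the low-count filter only through the SCM samples. The list genes were measured in the same nuclei, and SCM replicate 2 had the high share of marker-rich nuclei given above. They are thus not independent of each other, and these counts are a description without a test.

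Rgs13 was at 33.5, 97.5 and 111 CPM in QCM and at 266 and 200 CPM in SCM. The log2 difference was 1.42 ± 0.44 (SE), with an adjusted p of 0.819 in edgeR. St18 was at 103, 195 and 392 CPM in QCM and 719 and 527 CPM in SCM, a log2 difference of 1.29 ± 0.52. For these genes and for Dgki (1.20 ± 0.58) the groups did not overlap, SCM replicate 2 was the highest of the 5 samples, and that sample had the high share of marker-rich nuclei given above. Within the nuclei with 3 or more markers alone, 5, 7 and 13 in QCM and 10 and 8 in SCM, the log2 differences were 1.98 ± 0.68 for Rgs13, 1.69 ± 0.81 for St18 and 1.65 ± 0.78 for Dgki. Dgki was at 0.050 ± 0.92 within the nuclei with 0 or 1 marker. None of these passed the threshold, and since UMIs of the same genes set the marker number, these values do not separate a shift in the mix from a change within nuclei.

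Pou2f3 and Dclk1 overlapped between the media. Pou2f3 had a log2 difference of 0.50 ± 0.58 and SCM replicate 2 was below 2 of the 3 QCM samples. Dclk1 had one of 0.15 ± 0.69, and the highest sample was QCM replicate 3. Sh2d6 was at 9.56, 20.2 and 79.7 CPM in QCM and 58.2 and 56.3 CPM in SCM, a log2 difference of 0.54 ± 0.75, which went from 0.085 without QCM replicate 1 to 1.81 without QCM replicate 3. Avil, with 1.11 ± 0.50, Runx1, with 1.01 ± 0.45, and Il13ra1, with 0.96 ± 0.37, had no overlap between the groups.

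None of these 3 genes, which are not among the 6 markers, passed the threshold, with an adjusted p of 0.819 each in edgeR. Krt18 was the list gene with the most negative value, at -0.75 ± 0.46.

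The other lists showed no call either. All 3 enteroendocrine and 8 of 9 enterocyte genes tested were lower, with medians of -1.16 and -1.24, and the lipid carrier Apoa1 reached -4.01. It was at 387 CPM in QCM replicate 1 and at 8.31 to 41.6 CPM in the other 4 samples. In the other nuclei the summed enterocyte level was 5549, 1646 and 2942 CPM in QCM and 1418 and 2257 CPM in SCM. Their summed enteroendocrine level was 297, 235 and 435 CPM in QCM and 140 and 248 CPM in SCM. Of the stem list 5 of 7 were higher (median 0.50), of the ISC/CBC signature, which shares 6 of these genes, 4 of 6 (0.53), and of the 21 YAP targets all 6 that were tested (0.47). The 6 YAP values ran from 0.0032 for Crim1 to 1.57 for Rbms3. In cluster 11 the summed YAP level was 438, 1082 and 739 CPM in QCM and 1318 and 840 CPM in SCM, so that the groups overlapped. In the other nuclei this level was 534, 981 and 795 CPM in QCM and 1447 and 984 CPM in SCM. Rbms3 held 2, 11 and 7 UMIs in QCM and 18 and 12 UMIs in SCM, and it passed the low-count filter only through the SCM samples.

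The 5 genes with the smallest p in each direction are given as values, since none passed the adjustment. Itga9, an integrin subunit, was at 7.17, 6.72 and 13.9 CPM in QCM and at 54.0 and 76.8 CPM in SCM (log2 difference 2.61 ± 0.58), while the other nuclei stood at 1.65 to 7.03 CPM in these samples. Its values rest on 3, 2 and 4 UMIs in QCM and on 13 and 15 UMIs in SCM.

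The other 4 higher genes were the pseudogene Mgam2-ps (2.51 ± 0.57), the tricellular junction gene Ildr1 (1.96 ± 0.57), the formin Fmnl2 (1.73 ± 0.49) and the glycogen phosphorylase Pygb (1.55 ± 0.44). Mgam2-ps and Fmnl2 were also higher in the other nuclei of SCM, at 48.5 to 54.3 CPM against 10.2 to 20.9 CPM and at 119 to 198 CPM against 18.8 to 83.0 CPM. The 5 lower genes were Hsd17b10 (-3.34 ± 0.93), Mrps36 (-2.42 ± 0.59), Selenok (-1.90 ± 0.52), Atxn7l3b (-1.76 ± 0.41) and Ndufaf4 (-1.63 ± 0.42), of which Hsd17b10, Mrps36 and Ndufaf4 belong to mitochondria. In the other nuclei Hsd17b10 was also lower in SCM, at 27.8 to 43.0 CPM against 44.2 to 101 CPM. So was Atxn7l3b, at 73.2 to 91.0 CPM against 94.6 to 149 CPM, while Mrps36, Selenok and Ndufaf4 overlapped there. Itga9, Mgam2-ps, Ildr1 and Pygb held 2 to 7 UMIs in each QCM sample and passed the low-count filter only through the SCM samples. Hsd17b10, Mrps36 and Selenok passed it only through the QCM samples. All 10 had groups without overlap, which follows largely from their choice by p. Both SCM samples lay above all QCM samples in 13.3% of all genes tested and below them in 6.41%.

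Whether cluster 11 changed otherwise than the rest was tested with the interaction of nucleus class and medium, with the sample as a block. The rest was summed over all other clusters, so a shift in their mix and a change within their nuclei cannot be told apart. No other cluster was compared singly. Of 18129 genes 12 were called (0.0662%), 8 with a more positive change in the cluster (0.0441%) and 4 with a more negative one (0.0221%). The first group held Defa30, Defa24, Lyz1, St18, Dgki, Cacna1a, Spink4 and Itpr2, and the second Gm23935, Clu, Krt18 and Krt19. Voom with limma called none of 18129, with 664 higher and 378 lower at an unadjusted p under 0.05, and DESeq2 called 1 gene, Defa30.

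Defa30, Defa24 and Lyz1 are antimicrobial genes of Paneth cells and Spink4 is a goblet cell gene, and defensins share reads with near-identical copies. Of the UMIs in cluster 11 of SCM replicate 2, the Paneth-rich nucleus described above held 46 of 47 for Defa30, 133 of 161 for Defa24, 47 of 56 for Lyz1 and 89 of 132 for Spink4. Without that nucleus the log2 difference went from 4.43 to 1.96 for Defa30, from 1.73 to 0.0076 for Defa24, from 2.00 to 0.033 for Lyz1 and from 0.95 to -0.050 for Spink4, and none of these 4 was called. Dgki, St18 and Cacna1a were still called. Dgki and St18 are among the 6 markers, and SCM replicate 2 had the high share of marker-rich nuclei given above. Their calls do not separate a shift in the mix within cluster 11 from a change within nuclei. In QCM replicate 1 a single nucleus held 30 of the 43 St18 UMIs of the cluster. In QCM replicate 2 one held 34 of the 99 Dgki UMIs. The other 5 lost the call with nearly the same values, at 0.83 for Itpr2, -0.94 for Gm23935, -1.80 for Clu, -0.98 for Krt18 and -0.83 for Krt19, with adjusted p of 0.0533 to 0.126 in edgeR.

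Leaving out QCM replicate 1, the sample of the tests without Y-linked expression, kept 8 of the 12 calls. The 4 lost were Dgki (1.08, adjusted p 0.0950 in edgeR), Clu (-1.73), Krt19 (-0.80) and Itpr2 (0.46). Without SCM replicate 2 there were 3 calls, namely Pou2f3, Cacna1a and Fgf14. That fit holds 1 SCM sample, which is assumed to vary like the QCM samples, and Pou2f3 was at 3.10 in it and at 0.12 without SCM replicate 3.

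Cacna1a, a subunit of a voltage-gated calcium channel, was at 81.3, 262 and 201 CPM in QCM and at 387 and 435 CPM in SCM, against 36.8 to 88.1 CPM in the other nuclei of the 5 samples. The difference of the changes was 1.07 ± 0.20 on the log2 scale, with an adjusted p of 2.74e-04 in edgeR. It was called with each sample left out except SCM replicate 3 (0.96), and Dgki and St18 were not called without SCM replicate 2 (1.37 and 1.02). Itpr2 ranged from 0.46 without QCM replicate 1 to 1.27 without QCM replicate 3, and the latter was the only sample whose removal left it called.

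Clu, Krt18 and Krt19 changed less or in the other direction in cluster 11 than in the sum of all other nuclei. Whether this is particular to cluster 11 was not tested against single clusters. Clu, a gene of the fetal-like epithelium that appears on injury, was at 45.4, 13.4 and 20.8 CPM in QCM and at 70.7 and 46.1 CPM in SCM in cluster 11, while in the other nuclei it was at 44.6, 15.3 and 23.6 CPM and at 365 and 61.0 CPM. The difference of the changes was -1.83 ± 0.42 (adjusted p 0.0281, edgeR), and the largest part came from SCM replicate 2. Krt18 was at 416, 242 and 243 CPM in QCM and 175 and 241 CPM in SCM, while the other nuclei had 411, 218 and 217 CPM and 392 and 339 CPM. Its difference was -0.93 ± 0.22 (adjusted p 0.0429), and that of Krt19 was -0.84 ± 0.20 (adjusted p 0.0460). Without SCM replicate 2, Clu was at -0.32, Krt18 at -0.57 and Krt19 at -0.46, in a fit with 1 SCM sample. None of these 3 genes was called without QCM replicate 3. Krt18 and Krt19 were also not called without SCM replicate 3, and Clu and Krt19 not without QCM replicate 1.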

How the data were processed

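Single-nucleus RNA-seq libraries of 6 organoid cultures were analysed, 3 per medium. The submitters' processing notes name Cell Ranger 2.1.1 and the study's methods the mm10 genome; the authors removed nuclei with outlying mitochondrial fraction, UMI total or gene number and clustered the rest with scanpy, Harmony and Leiden. The deposited matrices hold UMI counts per gene and nucleus. The deposited table of nuclei gives the cluster, the mitochondrial share as a fraction, and UMAP coordinates, which the authors deposited as a score without unit. The fraction was not used in any test.

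Counts were summed per sample, since nuclei are not replicates, and CPM are counts per 1000000 UMIs of the genes used in that sum. Tests used edgeR 4.0.16 (quasi-likelihood, TMM, minimum count 10, Benjamini-Hochberg, threshold 0.05), with DESeq2 1.42.0 and limma 3.58.1 in R 4.3.3 as alternatives. No doublet caller was run; nuclei over 2 times the median UMIs of their cluster and sample (deep nuclei) were left out as an alternative. Gene names and coordinates are from GENCODE M21 (GRCm38). Nuclei within samples were thinned at random with a fixed seed. The code was tested on simulated data.

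Sample totals ranged from 4071926 to 41035733 UMIs, and those of cluster 11 from 20337 to 418307, so SCM replicate 1 gave the least precise values. The study counts mice as replicates, but the labels do not say which samples share a mouse, so p-values measure the spread between these samples. Same-numbered samples deviated together with r = 0.36, 0.46 and -0.09 over 19045 genes, so the numbers were not taken as pairs. The members, the lists and the tests were chosen with earlier results of these data known. Genes named were the 6 markers, the 15 genes with the largest ratio to the other nuclei (at least 20 CPM), up to 4 tuft list genes per role by level, the genes called or the 5 with the smallest p per direction, and the called interaction genes; others are named where a sentence says so or as counts of UMIs. Some genes, also of the lists, and the mitochondrial genes were not used here.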

Additional observations from a re-analysis of the deposited data

Results flagged for a closer look

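The change from QCM to SCM differed between cluster 11 and the sum of all other nuclei for 12 genes by the edgeR interaction test, 3 against 2 samples. In 8 the change was more positive in cluster 11, with log2 differences of 4.43 ± 0.44 (SE) for Defa30, 2.00 ± 0.30 for Lyz1, 1.73 ± 0.21 for Defa24, 1.496 ± 0.28 for Dgki, 1.17 ± 0.20 for St18, 1.07 ± 0.20 for Cacna1a, 0.95 ± 0.20 for Spink4 and 0.85 ± 0.21 for Itpr2. In 4 it was more negative, with -1.83 ± 0.42 for Clu, -0.93 ± 0.22 for Krt18, -0.92 ± 0.21 for Gm23935 and -0.84 ± 0.20 for Krt19. The adjusted p ranged from 2.64e-19 for Defa30 to 0.0489 for Itpr2. Without SCM replicate 2 the differences were 0.015 for Spink4, -0.32 for Clu, -0.46 for Krt19, -0.57 for Krt18 and -0.67 for Gm23935. Spink4 was not called without QCM replicate 2 or without QCM replicate 3, and Gm23935 not without QCM replicate 3. St18 and Dgki were among the 6 markers, and the clustering used the expression of these same nuclei. A shift in the share of marker-rich nuclei and a change within nuclei cannot be told apart in these sums. Without the Paneth-rich nucleus 3 of the 12 were called, and the values fell in Defa30, Defa24, Lyz1 and Spink4, while the other 5 that lost the call moved by little. Itpr2 ranged from 0.46 to 1.27 with replicates left out and was called in 1 of those 5 fits.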

How the results depend on the processing

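The number of genes called between the media in cluster 11 was 0 in edgeR and in 14 of 16 alternatives. It was 70 with no filter on low counts (7 higher, 63 lower) and 56 with the replicate block (17 higher, 39 lower, the former with Rgs13 at an adjusted p of 0.0070, St18 at 0.0011 and Dgki at 0.028), where the numbers were not shown to pair the samples and whose effect is given only here. In that block fit QCM replicate 1 had no SCM partner, so the change by medium rests on replicates 2 and 3 alone. Leaving out each replicate gave 0 calls, also without QCM replicate 1. The interaction count of 12 became 1 with DESeq2, 0 with voom, 26 without deep nuclei (8 of the 12 kept), 0 with no replicate block and no sample block, 3 with the replicate block in place of the sample, and 3 without the Paneth-rich nucleus. It was 3 to 15 with each replicate left out, 3 of them without SCM replicate 2. Among single genes, Dclk1 turned sign between the media at -0.43 to 1.21 with replicates left out, at -0.16 with all 6 samples and at -0.10 with the replicate block, and in the interaction at -0.75 to 1.06 and at -0.29 with all 6 samples. Pou2f3 between the media ranged from -0.46 to 1.07 and Lyz1 in the interaction from -0.091 to 2.79 with replicates left out, and Spink4 in the interaction was -0.050 without the Paneth-rich nucleus. The share of nuclei kept its direction in all alternatives on the deposited cluster, from -0.39 to -0.70 with replicates left out, -0.56 with the replicate block (adjusted p 0.466) and -0.37 without the shared barcodes, and turned to 0.27 for nuclei with 3 or more markers and 0.0089 for those without SCM replicate 1. The difference in median UMIs per nucleus, -1586 (SCM minus QCM), went from -2901 to 634 with replicates left out. Of the 15 leading genes 9 were kept at a minimum of 50 CPM and 9 without deep nuclei, and 13 to 14 with replicates left out. The share of nuclei with a marker was 81.4% at full depth. The causes were not tested. The alternatives on the Paneth-rich nucleus, on shared barcodes, on marker ranges within the cluster and on leading genes without deep nuclei were chosen after seeing the data. Depth limits genes with few UMIs per sample, also above 5 CPM, as with Itga9 at 6.72 CPM on 2 UMIs in QCM replicate 2. The 4 nuclei of SCM replicate 1 support no gene comparison.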
